A study of Mus musculus with 6 samples.

Results

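Motile cilia are the beating hairs that ependymal cells, the lining of the brain ventricles, use to move cerebrospinal fluid. The axoneme, the shaft of such a cilium, holds a ring of doublet microtubules around a central pair. Outer and inner dynein arms on the doublets are the motors, radial spokes and the central pair pace them, and tektins are filament proteins of the doublet wall. Intraflagellar transport (IFT) is the traffic of 2 protein complexes, IFT-A and IFT-B, that builds cilia, and it serves the single immotile primary cilium of other cells as well. The motile cilium genes were chosen by name, as the genes whose symbol starts with Dnah, Dnaic, Dnali, Dynlrb, Cfap, Rsph, Tekt or Spag, or with Ift directly followed by a digit. This gave 56 of the 28324 genes of the table: 15 Dnah, 2 Dnaic, 1 Dnali, 2 Dynlrb, 7 Rsph, 5 Tekt, 11 Spag and 13 Ift genes. The table has 0 rows that start with Cfap, so that family was not analysed here.

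The data came from the hippocampus of APP/PS1 mice, strain B6.Cg-Tg(APPswe,PSEN1dE9)85Dbo/Mmjax, which carry mutant transgenes of amyloid precursor protein and presenilin 1. All 6 mice were 10 weeks old and carried the transgenes: 3 had been given an antisense oligonucleotide (ASO) and 3 phosphate buffered saline (PBS), so no mouse had a control oligonucleotide and none lacked the transgenes. IDOL, the ubiquitin ligase that Mylip encodes, is named in the title as the protein to be reduced. In Drop-Seq each cell is caught in a droplet with a bead whose barcode marks its transcripts, and the 3' ends are read and counted by unique molecular identifiers (UMIs). The authors had assigned each cell to 1 of 17 classes, and the comparisons here set their class Ependyma against the other classes, and ASO mice against PBS mice.

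After removal of called doublets 12616 cells were left, 1751 to 2822 a mouse with 2005768 to 3150332 UMIs, and 8 cell barcodes occurred in more than 1 mouse. Mylip was measured at 60.2, 70.0 and 74.8 counts per 1000000 UMIs of the same cells (CPM) in the PBS mice and at 38.7, 30.2 and 33.9 CPM in the ASO mice. No UMI of Mylip was found in Ependyma, where 0 of 234736 UMIs allows up to 12.8 CPM (3 counts, counting error only). The class Ependyma held 188 cells, 37, 17 and 21 in PBS replicates 1 to 3 and 40, 53 and 20 in ASO replicates 1 to 3. Its label was checked with 9 ependymal markers, which summed to between 7943 and 9969 CPM in Ependyma and to between 157 and 220.4 CPM outside it. All 9 were higher there, and Foxj1, the forkhead factor that switches on motile cilium genes, was at 724 CPM against 10.9 CPM outside. None of the oligodendrocyte, microglial, endothelial and neuronal marker lists had a member that was higher in Ependyma (0 of 6 in each), and Csf1r, C1qa and Tmem119 of microglia and Cldn5 of endothelium were at 0 UMIs there. Of 6 astrocyte markers 2 were higher in Ependyma, and the list summed to 1767 to 2545 CPM there against 4611 to 6402 CPM outside. Of 6 markers of neural stem and progenitor cells 2 were higher in Ependyma, and that list summed to 308 to 764 CPM there against 197 to 248 CPM outside. Of 9 choroid plexus markers 4 were higher in Ependyma, and the list summed to 116 to 10183 CPM there against 1103 to 9382 CPM outside. Kcnj13 and Aqp1 were at 0 UMIs in Ependyma, while Ttr ranged from 0 CPM in PBS replicate 3 to 9674 CPM in PBS replicate 2. Ttr thus made up most of the highest sum of that list. Pooled over mice, Ttr was at 3340 CPM in Ependyma and 5054 CPM in all other cells. Outside Ependyma and choroid plexus Ttr was also measured, at 723 to 7854 CPM.

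The motile cilium genes were concentrated in Ependyma. Together they made up 11834, 10743 and 10141 CPM there in PBS replicates 1 to 3, and 13279, 11504 and 11412 CPM in ASO replicates 1 to 3 (mean 11486 ± 1068, SD, n = 6 mice). In all other cells together they summed to between 1272 and 1372 CPM. Pooled over mice, the level in Ependyma was 8.86 times that in the other cells. The authors assigned the classes to these same cells, so Ependyma against the rest is a description and was not tested. Of the 54 members with at least 1 UMI in the kept cells, 46 were higher in Ependyma, where 30.7% of all genes with a UMI were higher. In 32 members every mouse in Ependyma was above every mouse outside it, against 3.74% of all genes. A fold was formed for the 47 members with more than 3 UMIs on both sides. The median was 15.0, against 1.07 over all genes with a fold. Of these members 26 were at least 10 times higher, against 6.38% of all genes with a fold. The floor leaves out members with few UMIs in Ependyma, so both values describe only the members kept. Left out were Dnah8, Tekt5, Dnah17, Spag4 and Rsph6a, which were lower in Ependyma, and Tekt3 and Dnah7c, which were higher.

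The parts of the beating machine and the transport genes differed in how far they were limited to Ependyma. The 33 axonemal members (dynein arms, radial spokes, central pair and tektins) summed to 7604 CPM in Ependyma and to 339 CPM elsewhere, a ratio of 22.4. Choroid plexus came next at 1040 CPM, a value that rests on 61 UMIs from 39 cells, and microglia were lowest at 221 CPM. The 13 IFT members summed to 2411 CPM in Ependyma and 480.1 CPM elsewhere, a ratio of 5.02, with Cajal-Retzius neurons next at 721 CPM. The 8 Spag genes outside the central pair had the smallest ratio, 1.58, at 549.6 CPM in Ependyma against 347 CPM elsewhere, and polydendrocytes at 583 CPM were above Ependyma.

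**Figure D1:**
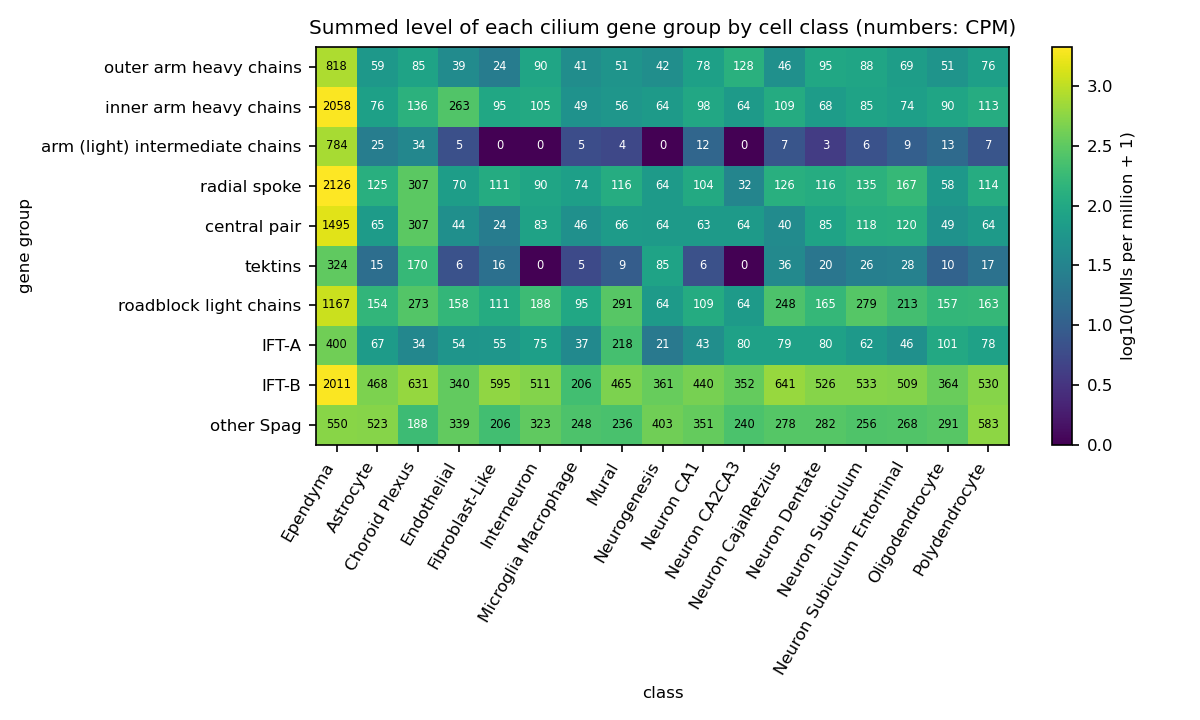
Summed level of each group of motile cilium genes (rows) in each of the 17 cell classes (columns), in CPM pooled over 6 mice. Colour is log10 of the level plus 1, and the printed numbers are CPM. Ependyma is the highest column for 9 of the 10 groups, and the other Spag genes are higher in polydendrocytes (583 against 549.6 CPM).

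Among the dynein motors, the inner arm heavy chains reached 2058 CPM in Ependyma against 106 CPM elsewhere. Dnah12 led them with 120 UMIs, at 562, 407 and 463 CPM in PBS replicates 1 to 3 and 716, 470.5 and 258 CPM in ASO replicates 1 to 3. Dnah6 followed with 115 UMIs, at 360.0, 560.1 and 463 CPM in the PBS mice and 445, 531 and 663 CPM in the ASO mice. Both had low levels elsewhere, 6.46 CPM for Dnah12 and 8.80 CPM for Dnah6, and every mouse in Ependyma stood above every mouse outside. Dnah10 and Dnah2, further heavy chains of inner arms, had 54 UMIs each in Ependyma and were 32.1 and 27.7 times higher there. Dnah7b had 56 UMIs and Dnah7a 38, but Dnah7c had only 1, and since these 3 genes are near-identical copies the split between them depends on how the authors counted reads that fit several.

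The outer arm heavy chains summed to 818 CPM in Ependyma and 57.7 CPM elsewhere. Dnah5, with 72 UMIs, ran at 495, 102 and 308 CPM in the PBS mice and 155, 364 and 294 CPM in the ASO mice. Dnah9, with 67 UMIs, was found in 5 of the 6 mice: 270.0, 255 and 0 CPM in PBS replicates 1 to 3 and 484, 258 and 294 CPM in ASO replicates 1 to 3. PBS replicate 3 had 0 UMIs of Dnah9 among the 25934 UMIs of its 21 ependymal cells. Dnah11 had 52 UMIs, and its levels of 147 to 292 CPM in single mice lay above its 11.1 CPM elsewhere. Dnah8 had 1 UMI in Ependyma against 186 outside and Dnah17 had 0 against 58, so all but 1 of the 192 outer arm UMIs in Ependyma came from Dnah5, Dnah9 and Dnah11.

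The smaller dynein subunits showed the sharpest contrast of any group, 784 CPM in Ependyma against 10.3 CPM elsewhere. Dnali1, a light intermediate chain of the inner arms, had 100 of its 116 UMIs in Ependyma, which is 86.2% and the highest share of any member. Its levels were 315, 356 and 269.9 CPM in PBS replicates 1 to 3 and 465, 455 and 663 CPM in ASO replicates 1 to 3, against 1.14 CPM in other cells. Dnaic1, an intermediate chain of the outer arms, was at 225, 153 and 269.9 CPM and 348, 379 and 147 CPM in the same order, 61.9 times its level elsewhere. Dnaic2, its partner chain, was lower with 17 UMIs in Ependyma.

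Radial spoke genes summed to 2126 CPM in Ependyma against 92.3 CPM elsewhere. Rsph1, a spoke head protein, had 227 UMIs there and was measured at 877, 764 and 733 CPM in PBS replicates 1 to 3 and at 1123, 1078 and 920.3 CPM in ASO replicates 1 to 3. Even the lowest of these values stands far above the 5.82 CPM of the other cells pooled. Rsph4a, also of the spoke head, was at 562, 305 and 463 CPM in the PBS mice and 290.4, 470.5 and 663 CPM in the ASO mice, with 73.8% of its UMIs in Ependyma. Rsph9, the other head protein with a high count, was less restricted: 17.2% of its UMIs were in Ependyma, and astrocytes held 118 UMIs at 53.0 ± 9.14 CPM (SD, n = 6). The spoke stalk gene Rsph3a had 47 UMIs in Ependyma and 501 outside, and its paralog Rsph3b 16 and 326, counts that the authors' read assignment could split between them. Rsph10b had 43 UMIs in Ependyma and 55 outside, a level 46.9 times as high in Ependyma, and Rsph6a had 0 in Ependyma.

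The 3 central pair genes summed to 1495 CPM in Ependyma against 59.97 CPM elsewhere. Spag16 had 158 UMIs and ran at 517, 713 and 1003 CPM in the PBS mice and 774, 531 and 736 CPM in the ASO mice. It was also present in other classes, with 521 UMIs and 37.0 CPM outside Ependyma. Spag17 had 116 UMIs and was at 405, 458 and 386 CPM in the PBS mice and 561, 516 and 589 CPM in the ASO mice against 7.59 CPM elsewhere. Spag6 had 77 UMIs, and its levels of 184 to 427 CPM in single mice lay above 15.4 CPM in other cells. Outside Ependyma, Spag6 was highest in the choroid plexus (153 CPM, 9 UMIs) and reached 45.0 ± 11.5 CPM in dentate neurons (SD, n = 6). The gene of Spag17 overlaps Wdr3 and an antisense gene on the opposite strand, and without the counting strand, which is not given in the sources used here, their reads cannot be told apart. The same holds for other members that overlap a coding gene on the opposite strand, among those named Rsph9 (Mrps18a), Dnali1 (Gnl2), Dnaic1 (Enho), Dnah11 (Cdca7l), Dnah8 (Glo1), Dnah17 (Pgs1) and Ift74 (Lrrc19). Rsph10b overlaps Pms2 on the same strand, so its counts are uncertain with any strand setting.

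The tektins summed to 324 CPM in Ependyma and 12.9 CPM elsewhere. Tekt1 accounted for 47 of their 76 UMIs, Tekt4 for 20, Tekt2 for 6 and Tekt3 for 3, while Tekt5 had 0 in Ependyma and 69 outside. Tekt1, given although it is just outside the 25 most counted members, was at 382, 50.9 and 269.9 CPM in PBS replicates 1 to 3 and 252, 60.7 and 184 CPM in ASO replicates 1 to 3. The low values of PBS replicate 2 and ASO replicate 2 rest on 1 and 4 UMIs.

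**Figure D2:**
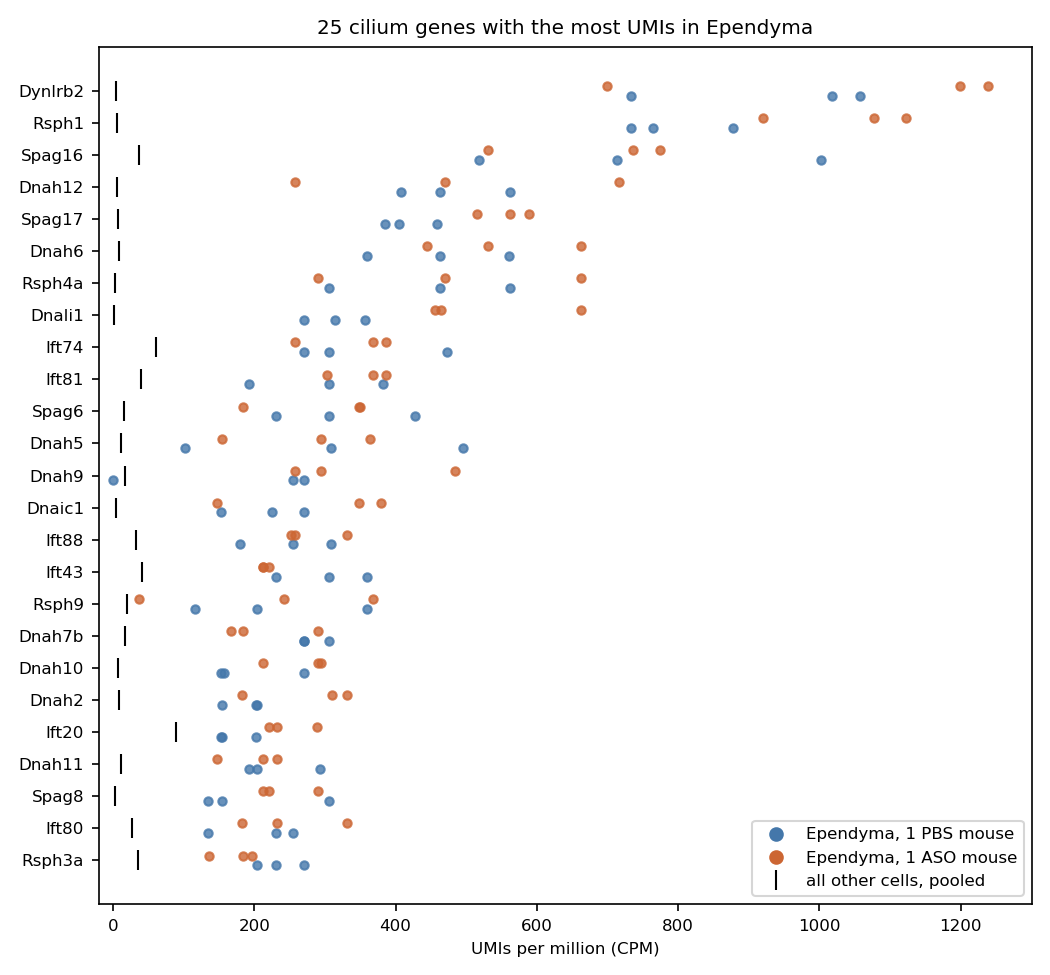
Level of the 25 motile cilium genes with the most UMIs in Ependyma, in CPM (linear axis): each point is Ependyma of 1 mouse (3 PBS, 3 ASO), and the black tick is all other cells pooled. Dynlrb2 and Rsph1 lie farthest to the right, and every point lies to the right of its tick except Dnah9 in PBS replicate 3, which is at 0.

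The roadblock light chains, small subunits shared by dynein motors, were split between a gene of ependymal cells and a gene of all cells. Dynlrb2 was the most counted member in Ependyma, with 248 UMIs at 1057, 1018 and 733 CPM in PBS replicates 1 to 3 and 1239, 1199 and 699 CPM in ASO replicates 1 to 3. Only 62 UMIs (4.40 CPM) were found in the other 12428 cells, so its level in Ependyma was 240.1 times as high. Its paralog Dynlrb1, which serves cytoplasmic dynein, had 2162 UMIs outside Ependyma and 26 within it. The level of Dynlrb1 was 111 CPM in Ependyma and 153 CPM elsewhere, with the highest mean in mural cells (279 ± 74.3 CPM, SD, n = 6). A UMI of Dynlrb2 was present in 69.7% of ependymal cells and 0.467% of other cells, and in 0.162% of microglia, a class without motile cilia. With each cell thinned to 500 UMIs these shares were 42.0%, 0.241% and 0.108%. Dynlrb1 showed 11.7% in Ependyma and 14.9% elsewhere, and 4.79% and 7.14% after thinning. The median depth was 1189 UMIs in ependymal cells and 1050 in the others.

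Regulatory factor X (RFX) proteins and FOXJ1 are the main activators of motile cilium genes, so the stretch of 250 bases before each RefSeq transcription start (GRCm38.p6) was searched on both strands for 3 motifs. Promoters of 46 of the 56 members were matched, with 51 start sites. GTTGCC, an arm of the paired site that RFX proteins bind, was found at 14 of these 51 starts (27.5%), against 10.4% of all 32851 promoters of the same length. Among axonemal members it was found at 10 of 32 starts, and among IFT members at 3 of 10. Near-identical copies share part of this count, since Dnah7a, Dnah7b and Dnah7c each hold the motif. Overlapping stretches before different starts of Tekt2 also hold the same copies. Counted by gene, 13 of the 46 members had the motif (28.3%), against 11.8% of all genes. The full paired RFX site was searched only as a strict pattern with a fixed gap between its arms. This pattern was found at 0 of 51 starts (0.374% of all). Looser pairs were not counted, so the 0 does not show that paired sites are absent. For example, the stretches before Dnah6, Dnah7a, Dnah7c and Dnaic2 hold pairs with a shorter gap and a changed base. The forkhead motif GTAAACA was found at 2 of 51 starts (3.92%, against 3.17% of all). A match is a run of letters and not a binding site. The next 3 stretches are shown because Dynlrb2 and Dynlrb1 are paralogs with opposite patterns across classes, and because Spag16, the most counted central pair gene, has the motif on both strands. They end where the GENCODE M21 gene begins and run 5′ to 3′ on the plus strand, with GTTGCC or its complement GGCAAC in capitals.
Dynlrb2, chr8:116504765-116504973: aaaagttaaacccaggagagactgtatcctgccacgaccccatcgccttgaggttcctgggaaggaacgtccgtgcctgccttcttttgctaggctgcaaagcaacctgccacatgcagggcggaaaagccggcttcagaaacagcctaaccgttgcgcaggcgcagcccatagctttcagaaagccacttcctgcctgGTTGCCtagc
Dynlrb1, chr2:155236283-155236532: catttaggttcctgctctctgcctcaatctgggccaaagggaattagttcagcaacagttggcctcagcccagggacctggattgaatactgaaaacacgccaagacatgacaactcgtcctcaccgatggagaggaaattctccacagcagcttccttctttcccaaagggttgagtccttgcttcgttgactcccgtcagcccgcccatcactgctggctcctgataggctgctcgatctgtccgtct
Spag16, chr1:69826720-69826969: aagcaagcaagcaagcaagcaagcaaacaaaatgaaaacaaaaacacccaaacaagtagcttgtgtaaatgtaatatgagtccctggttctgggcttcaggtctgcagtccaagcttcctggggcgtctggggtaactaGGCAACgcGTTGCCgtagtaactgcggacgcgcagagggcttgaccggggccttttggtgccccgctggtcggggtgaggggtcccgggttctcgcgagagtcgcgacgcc
In Dynlrb2 the motif starts 51 bases before the RefSeq start. In Spag16 the copies start 111 and 103 bases before it and lie on opposite strands. No copy is in the stretch before Dynlrb1, nor in that before its other RefSeq start. The 3 stretches do not stand for all members. The motif was absent before Dnali1, Dnah12, Dnah6, Spag17, Spag8 and Dnaic1, which were far higher in Ependyma. It was present before Ift27 and Ift57, which had smaller ratios. Whether the motif has a part in the class pattern was not tested.

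The IFT genes were measured in every class and were higher in Ependyma by smaller ratios. The 10 IFT-B genes summed to 2011 CPM against 405 CPM elsewhere and the 3 IFT-A genes to 400.5 CPM against 75.2 CPM. Ift74 and Ift81, which together bind tubulin cargo, had 81 and 78 UMIs in Ependyma. Ift74 was at 472, 305 and 269.9 CPM in the PBS mice and 387, 258 and 368 CPM in the ASO mice, 5.68 times its level elsewhere. Ift81 was at 382, 305 and 193 CPM and 387, 304 and 368 CPM in the same order, 8.32 times its level elsewhere. Every mouse in Ependyma was above every mouse outside for both genes. Ift88 and Ift80, further IFT-B subunits, were 7.85 and 8.03 times higher, with 60 and 50 UMIs. Ift20, which is also found at the Golgi, had the smallest ratio of the IFT genes, 2.52, and with 1262 UMIs outside Ependyma it was the most counted IFT gene there. Ift43, an IFT-A subunit, was 6.01 times higher in Ependyma, and its next class was mural cells with 88 UMIs at 134, 153 and 124 CPM in the PBS mice and 249.7, 265 and 151 CPM in the ASO mice.

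Members whose names start with Spag do not all belong to cilia. Spag9, a scaffold that links vesicles to motors, was the most counted member outside Ependyma with 3608 UMIs and was lower in Ependyma (175 against 256 CPM). Its highest level was in polydendrocytes, 443 ± 42.0 CPM (SD, n = 6). Spag7 was level, 51.1 CPM in Ependyma and 52.5 CPM elsewhere with 740 UMIs. Spag8, in contrast, had 51 of its 93 UMIs in Ependyma and was 72.9 times higher there. Spag1, an assembly factor of dynein arms, had 20 UMIs in Ependyma, 7.41% of its total. Spag5, a mitotic spindle protein, had 5 UMIs in Ependyma and 66 in polydendrocytes (62.4 CPM). Spag4 had 0 UMIs in Ependyma, and Spag11a and Spag11b had 0 in any kept cell.

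An axonemal member with another leading class was Dnah3, singled out here after its values were seen. Dnah3 encodes an inner arm heavy chain, and 419 of its UMIs (65.9%) were in endothelial cells. There it was measured at 179, 249.99 and 156 CPM in PBS replicates 1 to 3 and at 247, 148 and 257 CPM in ASO replicates 1 to 3. All 6 values were above its pooled 98.0 CPM in Ependyma, which rests on 23 UMIs. In single mice Dnah3 in Ependyma was at 157, 50.9 and 38.6 CPM in PBS replicates 1 to 3. It was at 116, 45.5 and 184 CPM in ASO replicates 1 to 3, so the ranges of the classes overlapped. Dnah3 (chromosome 7, 119922671 to 120095280, minus strand, GRCm38) overlaps Lyrm1 on the opposite strand, and without the counting strand the reads of both genes cannot be told apart. Dnah9, the outer arm gene, was also counted in dentate neurons, with 75 UMIs at 56.5 ± 30.9 CPM (SD, n = 6). Single mice differed there, with 106, 13.1 and 38.3 CPM in the PBS mice and 57.4, 57.7 and 66.1 CPM in the ASO mice.

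Axonemal members were also counted per cell, with each cell thinned to 500 UMIs. The median ependymal cell had UMIs of 3 of the 33 axonemal members and the highest had 8. At least 3 were detected in 126 of 188 ependymal cells (67.0%) and in 14 of 12428 other cells (0.113%), where no cell had more than 3. Without thinning these shares were 95.2% and 0.885%. Per mouse, 73.0%, 52.9% and 71.4% of thinned ependymal cells passed in PBS replicates 1 to 3, and 70.0%, 66.0% and 60% in ASO replicates 1 to 3, so the groups overlapped. At this depth 5 ependymal cells (2.66%) showed none of the 33 genes. Of the 39 choroid plexus cells, 17 (43.6%) had at least 1 axonemal member and 1 had 3. At least 1 was found in 15.2% of all cells outside Ependyma and in 97.3% of ependymal cells.

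Other known genes of motile cilia followed the same class. Of 58 such genes on a fixed list, chosen with earlier results of these data known, 57 were in the table. In Ependyma 54 of them were higher, where 30.7% of all genes with a UMI were. Among the 55 with a fold, the median was 22.9, against 1.07 over all genes with a fold. At least 10 times higher were 34, against 6.38% of all genes with a fold. The 10 with the most UMIs in Ependyma were Tuba1a (524), Ak7 (301), Enkur (230), Tppp3 (219), Foxj1 (170), Spef2 (156), Meig1 (148), Fam183b (141), Dynll1 (133) and Tubb4b (109). Ak7, an adenylate kinase of cilia, was 201 times higher than outside. Fam183b was 169 times, Meig1 165 times and Enkur 138 times higher. Foxj1, Fam183b and Enkur are also among the 9 ependymal markers with which the class label was checked. Tuba1a (2.77 times) and Dynll1 (1.91 times), a tubulin and a dynein light chain used by all cells, had the smallest ratios of these 10. Rfx3 was 1.90 times higher and Rfx2 9.88 times. Mcidas, a switch early in the making of multiciliated cells, had 0 UMIs in Ependyma and 7 outside, too few to compare the classes.

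Next, ASO mice were compared with PBS mice. In UMIs summed over all cells of a mouse, no motile cilium gene differed at an adjusted p of 0.05 (edgeR's quasi-likelihood test, Benjamini-Hochberg over 14002 genes). Of the 47 members tested 0 were called, where 0.00714% of all genes were, and DESeq2 also called 0. At an unadjusted p under 0.05, 7 members were found, all higher in the ASO mice (14.9%, against 4.07% of all genes in either direction and 2.18% in this one), and DESeq2 found 2. They were, in order of p, Dnali1, Rsph1, Rsph10b, Spag17, Dynlrb2, Spag8 and Dnah6, each with an adjusted p of 0.999 in edgeR. Dnali1 was at 7.97, 5.91 and 3.30 normalised CPM in PBS replicates 1 to 3 and at 9.28, 12.8 and 9.63 in ASO replicates 1 to 3, a log2 fold change of 0.89 with an SE of 0.334. Rsph1 was at 25.3, 11.8 and 12.4 and 24.3, 35.6 and 20.3 normalised CPM in the same order, a log2 fold change of 0.71 (SE 0.277). Rsph10b was at 7.50, 4.09 and 2.47 and 10.6, 8.99 and 6.59, a log2 fold change of 0.94 (SE 0.378). The groups overlapped for Rsph1 and Rsph10b, where PBS replicate 1 was inside the range of the ASO mice, and did not for Dnali1. In 6 members all ASO mice were above all PBS mice (4.41% of all genes) and in 1 all were below (4.61%). Over the 47 members, 31 were higher and 16 lower in ASO mice, with a median log2 fold change of 0.11 against 0.0028 over all genes. Of the fixed list of other cilium genes 49 were tested in all cells, 37 higher and 12 lower, and 0 were called. An unadjusted p under 0.05 in edgeR was found for 2 of these 49 (4.08%, against 4.07% of all genes), each higher in the ASO mice.

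In summed counts, more ependymal cells and more RNA per ependymal cell cannot be told apart, so the cells were counted. Ependyma made up 2.03%, 0.845% and 0.995% of cells in PBS replicates 1 to 3 and 1.42%, 2.53% and 1.14% in ASO replicates 1 to 3. The difference of 0.404 percentage points was within the spread of the mice (exact two-sided permutation test, p = 0.5, where 0.1 is the smallest p that 3 against 3 allows), and without ASO replicate 2 it was -0.0107. Ependymal cells gave 31.9%, 15.2% and 17.1% of all axonemal UMIs in the PBS mice and 30.7%, 40.1% and 22.1% in the ASO mice. The mice with the largest share of ependymal cells, ASO replicate 2 and PBS replicate 1, also had the highest axonemal levels over all cells, 507 and 509 CPM. Whether the number of ependymal cells has a part in the differences between ASO and PBS mice was not tested. Without ASO replicate 2, or without PBS replicate 3, the number of members at an unadjusted p under 0.05 was 1 in place of 7. It was 4 without PBS replicate 2, 6 without ASO replicate 1, and stayed at 7 without PBS replicate 1 or without ASO replicate 3.

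**Figure D3:**
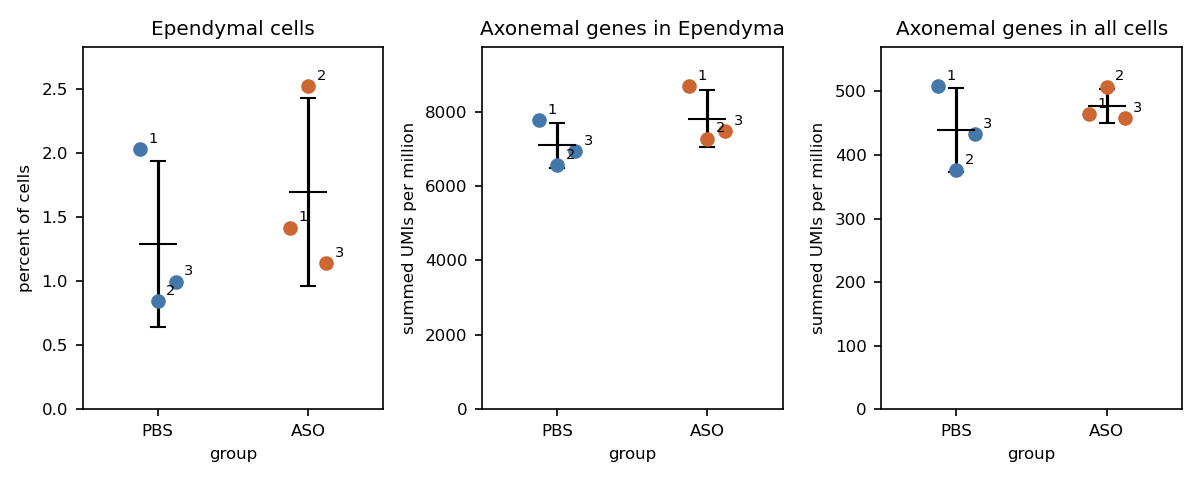
Per mouse (points, numbered by replicate; line and bar: mean and SD, n = 3 per group; linear axes from 0): the percent of cells in the class Ependyma, the summed level of the 33 axonemal genes within Ependyma, and the same over all cells, in CPM. PBS and ASO mice overlap in each panel, and ASO replicate 2 has the highest share of ependymal cells, 2.53%.

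With Ependyma left out, 41 members were tested in the other cells and 0 were called (edgeR; 0.0144% of all genes were), and DESeq2 called 0. Of these 41, 1 had an unadjusted p under 0.05 (3.98% of all genes did, and 1.99% in this direction). This was Dynlrb2, with 4.32, 2.24 and 2.49 CPM in PBS replicates 1 to 3 and 5.81, 5.25 and 6.06 CPM in ASO replicates 1 to 3 outside Ependyma, from 62 UMIs in all. Its log2 fold change was 0.93 (SE 0.394), with an adjusted p of 0.999 in edgeR. Members were higher in 19 and lower in 22 cases, with a median log2 fold change of -0.017. In this count 2 members had all ASO mice above all PBS mice (4.34% of all genes) and 2 below (4.57%).

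Within Ependyma 12 members passed the filter on low counts and were tested among 593 genes. 0 members were called by edgeR, as for 0% of all genes, and 0 had an unadjusted p under 0.05 (2.19% of all genes, and 1.35% with a higher level in ASO mice), while DESeq2 also found 0 of each. The lowest p belonged to Dnali1, whose ependymal levels above correspond to an estimate of 0.68 on the log2 scale (SE 0.365; adjusted p 0.958 in edgeR). Rsph1 followed with 0.36 (SE 0.268) and Spag17 with 0.39 (SE 0.327), both with an edgeR adjusted p of 0.958. In these 3 members all ASO mice were above all PBS mice (4.72% of all genes), and in 0 of the 12 all were below (4.22%). The estimate for Dynlrb2 was 0.17 (SE 0.271) with overlapping groups, and leaving out single mice gave 0.04 (without ASO replicate 1) to 0.36 (without ASO replicate 3). Dnah5 had the lowest estimate, -0.36 (SE 0.419). Over the 12 members, 7 were higher and 5 lower, with a median of 0.08 against -0.018 over all genes. The ependymal cells of ASO mice were also counted more deeply, with median UMIs of 1215, 1207 and 1343 a cell against 1143, 1086 and 1125 in PBS mice. The 9 ependymal markers summed to 9969, 8909 and 8761 CPM in ASO mice and 8325, 7943 and 8792 CPM in PBS mice. The part of depth and of these markers in the result was not tested. Of the fixed list of other cilium genes 20 were tested in Ependyma, 11 higher and 9 lower, and 0 were called.

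**Figure D4:**
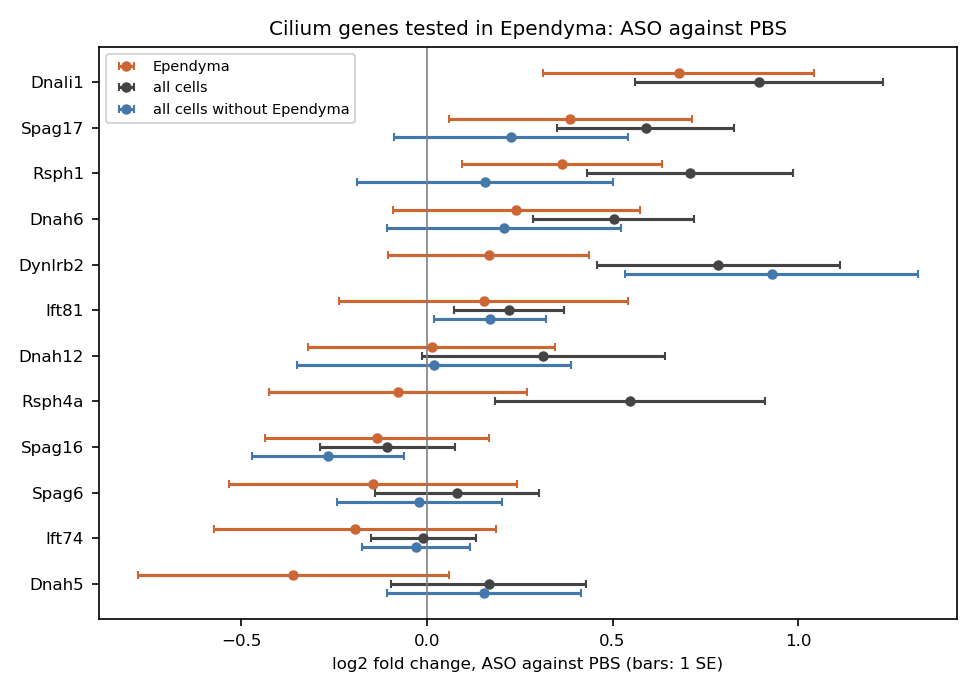
Log2 fold change of ASO against PBS mice (edgeR, bars: 1 SE, n = 3 mice per group) for the 12 motile cilium genes tested in Ependyma, in 3 fits: Ependyma, all cells, and all cells without Ependyma, where Dnali1 and Rsph4a were too low to be tested. Within Ependyma the estimates run from -0.36 for Dnah5 to 0.68 for Dnali1.

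In the 10 other classes with at least 20 cells in every mouse, 72 tests of members gave 0 calls in edgeR (0.0688% of all tests), and DESeq2 gave 0. An unadjusted p under 0.05 was found in 4 of the 72 (4.77% of all tests): Ift52 in astrocytes, Spag7 in dentate neurons and Ift43 in mural cells had higher estimates in ASO mice, and Dnah3 in oligodendrocytes a lower one. These 4 are named after their values were seen. Ift52, an IFT-B subunit, was at 12.7, 12.4 and 21.04 CPM in PBS replicates 1 to 3 and 31.8, 55.1 and 36.1 CPM in ASO replicates 1 to 3, from 4, 5 and 7 and from 14, 22 and 12 UMIs. Every ASO mouse was above every PBS mouse. The log2 fold change was 1.40, with an SE of 0.424 and 0.91 as the adjusted p in edgeR. Dnah3 in oligodendrocytes was at 68.4, 24.9 and 46.0 CPM in the PBS mice and 29.9, 28.3 and 24.6 CPM in the ASO mice, and the estimate on the log2 scale was -0.77 (SE 0.319; adjusted p 0.608 in edgeR). PBS replicate 1 stood above the other mice. Over the 72 tests, members were higher in 34 and lower in 38.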

How the data were processed

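The authors deposited counts of UMIs per gene and cell without normalization, with the mouse and a cell class in each column name. The submitters' processing notes name the tools bcl2fastq and STAR 2.5.0c and the builds mm10 and GRCm38. For the counting, program, annotation and strand were not given in the sources used here. Cells in the table had 569 to 1999 UMIs and at least 501 genes. Scrublet (scanpy 1.11.5), run per mouse, called 207 doublets (1.61%), which were removed, 5 of them in Ependyma.

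Levels are CPM, counts per 1000000 UMIs of the same cells. They are 3' counts and are not scaled by gene length, so an order of genes is an order of counts. Counts were summed per mouse, the replicate, and ASO was compared with PBS by edgeR 4.0.16 (filterByExpr, TMM, quasi-likelihood test, two-sided, Benjamini-Hochberg over all genes of the fit, threshold 0.05), in Ependyma for mice with at least 10 of its cells. In that comparison normalised CPM are of the tested genes. The test gives no SE. Each SE here is the absolute log2 fold change divided by the square root of the test's F statistic. DESeq2 1.42.0, other scaling, no filter on low counts, kept doublets, a term for 3 sets of mice and leaving out each mouse were alternatives. The scripts were tested on simulated data. The labels give each mouse a code but no replicate number, so numbers follow the order of samples. The codes of PBS and ASO mice form separate runs, and the labels do not say what they stand for. The p-values set a difference against the spread between these mice. Gene positions are from GENCODE M21, matched for all 56 members, and promoters from RefSeq.

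The members and the lists of roles, markers and other cilium genes were chosen with earlier results of these data known. Genes named with values were the 25 members with the most UMIs in Ependyma, the 6 with the most outside, the 3 with the lowest adjusted p in all cells and in Ependyma, and paralogs that differ between classes. Adjusted p-values were tied, so the lowest unadjusted p decided. Other members are named only to account for their group, a filter or the promoter motif, after their values were seen.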

Additional observations from a re-analysis of the deposited data

How the results depend on the processing

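The share of ependymal cells differed by -0.0107 to 0.775 percentage points between ASO and PBS mice when each mouse was left out in turn, and the lowest value, without ASO replicate 2, had the opposite sign (-0.0107). The number of members called was 0 in every alternative, for all cells, for all cells without Ependyma, for Ependyma and for the other classes. The number of all genes called moved more: 0 to 28 in all cells (1 as reported), 0 to 26 without Ependyma (2 as reported) and 12 to 70 in the other classes (27 as reported), with the highest numbers when no filter on low counts was used. Members at an unadjusted p under 0.05 numbered 1 to 7 in all cells, 0 to 3 without Ependyma, 0 to 2 in Ependyma and 1 to 20 in the other classes, where the 20 came from 496 tests without the filter. The summed level of the members in Ependyma was 11127 to 11755 CPM when each mouse was left out, 11292 CPM after thinning to 500 UMIs a cell and 11168 CPM without Dynlrb1, Spag7 and Spag9. In all cells the log2 fold change of Dnali1 was 0.60 to 1.20, that of Rsph1 0.46 to 1.14, that of Rsph10b 0.62 to 1.43 and that of Dynlrb2 0.45 to 1.32 over the alternatives, with adjusted p-values of at least 0.140 (edgeR or DESeq2). In Ependyma the log2 fold change of Dynlrb2 was 0.04 to 0.36 when each mouse was left out and 0.38 without the filter on low counts, that of Dnali1 0.55 to 0.78 and 0.88, that of Rsph1 0.29 to 0.49 and 0.58, and that of Spag17 0.35 to 0.45 and 0.60. No paired analysis was possible because the labels carry no replicate numbers. The term for 3 sets was built from the data and is no pairing by design: mice were ranked by mt-Rnr2 UMIs over mt-Cytb UMIs, and each set of 2 held 1 PBS and 1 ASO mouse. With it, 0 members were called in each comparison. In Ependyma 19640 to 65891 UMIs a mouse left 12 of the 56 members for the test, and this number was 8 to 29 when each mouse was left out (8 without PBS replicate 1 or ASO replicate 1, 29 without PBS replicate 2) and 50 without the filter. The cause of the difference in counts between alternatives was not tested.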
